A study of Homo sapiens with 6 samples.

Results

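The genes described here carry out mitosis: 54 genes were listed by symbol for the kinases that start it, the spindle checkpoint, the kinetochore, the spindle, cytokinesis and mitotic chromosome structure, and 52 of them had a row among the 16659 genes of the table. The other two, CCNB2 and UBE2C, were not analysed here. HepaRG is a human liver tumour line that the labels describe as a hepatic stem cell line, and the pregnane X receptor (PXR), encoded by NR1I2, is a nuclear receptor that switches on drug metabolism genes. RNA was measured in 3 libraries of wild-type HepaRG cells, which the study names as its control, and in 3 libraries of HepaRG cells labelled as a functional knockout of PXR. Neither group was treated with a drug, and the labels do not say whether the knockout is 1 clone or a pool. Knockout means below the libraries with that label.

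Dividing cells make most of these RNAs late in the cell cycle and degrade their proteins as mitosis ends. In G2 phase the MuvB complex, with B-MYB and then FOXM1, activates their promoters; in resting cells a form of the same complex called DREAM keeps them off, and many of these promoters carry a short element named CHR next to CCAAT boxes bound by NF-Y. CDK1 with cyclin B starts mitosis, kinetochores attach chromosomes to spindle microtubules, the checkpoint holds anaphase until all are attached, and CDC20 then turns the anaphase-promoting complex on securin and cyclin B. Adult hepatocytes rarely divide, whereas HepaRG cells divide in culture until they differentiate.

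The promoter sequences are shown because the members moved together and differ in these elements. RefSeq promoters on GRCh38.p14 were matched by symbol for 44 of the 52 genes. In the 250 bases before a start site, TTTGAA or its reverse complement, the core of the CHR element, was present for 23 of these 44 genes (52.3%), against 13.0% of the tested genes with a promoter in the RefSeq table and 16.1% of all genes in it. CCAAT, on either strand, was present for 32 (72.7%), against 41.8% and 37.0%. Both were present for 18 (40.9%), against 5.005% and 5.79%. A gene with several start sites was counted once if any window matched. Only the exact letters TTTGAA were searched, so genes without them were not checked for other forms of the CHR element. Adjoining matches of the 2 motifs can share bases, and a match is a description of letters, not of binding. The 120 bases before the start site are printed below for CDC20, the gene with the largest fall by the fitted log2 change. They are also printed for genes with both motifs (PLK1, HMMR), with TTTGAA only (BUB1B), with CCAAT only (CCNB1) and with neither (NUF2). SMC4, the only member that was higher in the knockout, is printed last. Capitals mark TTTGAA and CCAAT on either strand.
CDC20, chr1:43358861-43358980, plus strand: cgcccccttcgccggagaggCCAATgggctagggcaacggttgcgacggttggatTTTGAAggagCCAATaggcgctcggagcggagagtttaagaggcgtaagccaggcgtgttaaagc
PLK1, chr16:23678769-23678888, plus strand: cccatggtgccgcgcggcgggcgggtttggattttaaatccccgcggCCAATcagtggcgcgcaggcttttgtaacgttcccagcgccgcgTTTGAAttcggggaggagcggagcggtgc
HMMR, chr5:163460512-163460631, plus strand: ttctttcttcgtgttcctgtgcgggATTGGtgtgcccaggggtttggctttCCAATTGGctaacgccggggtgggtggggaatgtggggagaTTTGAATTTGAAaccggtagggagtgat
BUB1B, chr15:40160949-40161068, plus strand: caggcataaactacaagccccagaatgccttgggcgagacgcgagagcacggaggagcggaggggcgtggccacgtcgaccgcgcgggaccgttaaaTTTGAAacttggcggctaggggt
CCNB1, chr5:69167030-69167149, plus strand: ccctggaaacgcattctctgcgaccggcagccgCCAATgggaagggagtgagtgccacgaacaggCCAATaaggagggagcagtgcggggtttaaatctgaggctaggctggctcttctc
NUF2, chr1:163321834-163321953, plus strand: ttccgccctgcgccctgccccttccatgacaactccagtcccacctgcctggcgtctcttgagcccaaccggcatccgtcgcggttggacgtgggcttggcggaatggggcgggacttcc
SMC4, chr3:160399530-160399649, plus strand: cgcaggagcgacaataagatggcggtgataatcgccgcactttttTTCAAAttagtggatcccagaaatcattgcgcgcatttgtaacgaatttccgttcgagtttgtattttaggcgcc

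As 51 of the 52 members fell, genes with and without these letters are both among them, which is no result about the letters. Whether the letters go with the size of the change was not tested. CDC20 holds TTTGAA at -65 (its first base, counted back from the start site) and fell by 2.59 on the log2 scale. NUF2 holds neither motif in the printed window and fell by 1.87. SMC4, with such a match at -75 from the first of its RefSeq starts, was higher.

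Levels are in scaled CPM, read counts relative to a library size that the authors had scaled, and are written CPM below. Log2 changes are knockout minus wild type of log2(CPM + 0.5) with their standard error (SE), and a gene was called changed at a limma adjusted p under 0.05; errors of levels are SD over n = 3 libraries. Estimated depth was 11359204 to 20945982 reads in wild type and 28154877 to 33393089 in the knockout, so every knockout library was deeper. Of the values under 20 estimated reads, only 67.9% to 76.6% per library were whole multiples of the value of 1 read. Depths and read counts given here are therefore approximate. NR1I2 itself was not lower in the knockout, with 8.24, 7.04 and 7.60 CPM in wild type and 13.1, 13.4 and 14.3 CPM in the knockout; a value over the whole gene does not check a functional knockout. Of 5 hepatocyte markers, 4 had a row and all 4 were above 0 in every library, with a summed level of 1183 to 1243 CPM in wild type and 35401 to 36347 in the knockout; of 5 leukocyte markers, 2 had a row, with sums of 11.6 to 14.9 and 21.1 to 22.6 CPM. Sums of 5 stellate or fibroblast markers with a row were 78.4 to 83.1 and 398 to 414 CPM, of 3 cholangiocyte markers 118 to 121 and 331 to 354 CPM, and of 2 of the endothelial markers 54.8 to 55.1 and 215 to 222 CPM. These 3 sums were carried mainly by DCN (63.1 to 334.5 CPM on average), KRT19 (111 to 334 CPM) and KDR (53.3 to 218 CPM), while PDGFRB (2.05 to 0.440 CPM), KRT7 (1.57 to 0.872 CPM) and PECAM1 (1.58 to 0.353 CPM), markers of the same lists, were lower in the knockout. Also in these lists, ACTA2 (8.90 to 55.7 CPM), COL1A1 (3.85 to 7.10 CPM), COL3A1 (2.87 to 6.33 CPM) and SOX9 (6.50 to 9.68 CPM) were higher in the knockout. The hepatocyte sum was carried mainly by ALB (867 to 32829 CPM on average). Markers without a row were not analysed here, and none with a row was listed at 0 in any library. The part of these depth and marker differences in what follows was not tested. The labels do not state whether each library is its own culture; p-values therefore reflect the spread of these libraries alone, and that spread may be technical.

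Nearly all mitosis genes were lower in the knockout. Of 52 tested, 51 fell and 1, SMC4, rose, while of all 16219 tested genes 79.9% changed: 39.6% fell and 40.3% rose. By the fitted log2 change, a fall of at least 2-fold was seen for 39 members, against 10.1% of all tested genes. CDK1 lay just outside that count (log2 -0.9988), though its knockout mean was 49.6% of wild type. The median log2 change was -1.24 over the members, with the middle 50% between -1.50 and -1.03, and 0.01 over all tested genes. In every one of the 51 members that fell, all 3 knockout libraries lay below all 3 wild-type libraries, as they did for 40.0% of all tested genes; in SMC4 all 3 lay above, as for 40.8%. These are bulk samples: fewer cells in or near mitosis and less RNA per such cell cannot be told apart. With libraries scaled to equal sums, the median of all genes shifted from 0.01 to -0.12 and the calls from 6534 higher and 6426 lower to 5342 and 7705, while 51 members still fell and 1 rose.

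**Figure D1:**
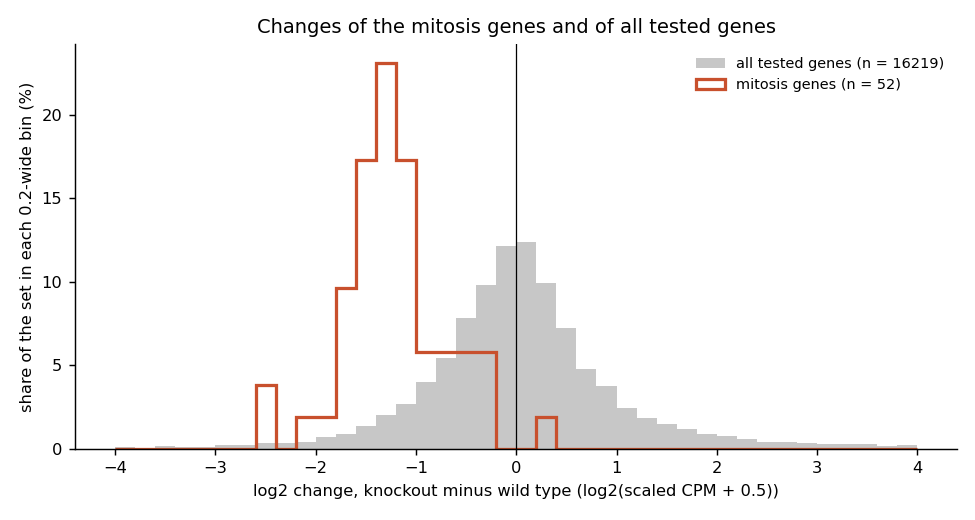
Share of genes in each 0.2-wide bin of log2 change for the 52 mitosis genes (line) and all 16219 tested genes (grey); 238 genes beyond a log2 change of 4 in size are not drawn. The mitosis genes centre at -1.24 and 1 of them lies to the right of 0.

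Summed over the 52 genes, wild-type libraries held 3178, 3209 and 3234 CPM and knockout libraries 1515, 1479 and 1497 CPM, so the groups did not overlap. The knockout sum was 0.467 of the wild-type sum, and 0.423 of it without SMC4. Replicates were close: the coefficient of variation over 3 libraries had a median of 3.79% in wild type and 3.91% in the knockout, and its highest values were 11.3% (CENPH) and 12.4% (CENPK). Per kilobase of exon, the highest wild-type members were CDC20 with 60.3 and TOP2A with 45.6 CPM per kb; in the knockout they were SMC4 with 25.4 and TOP2A with 19.4, and CDC20 had 9.81. The size of the change followed the wild-type level per kilobase only weakly across the 52 genes (Spearman rho -0.14), which share the same libraries.

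**Figure D2:**
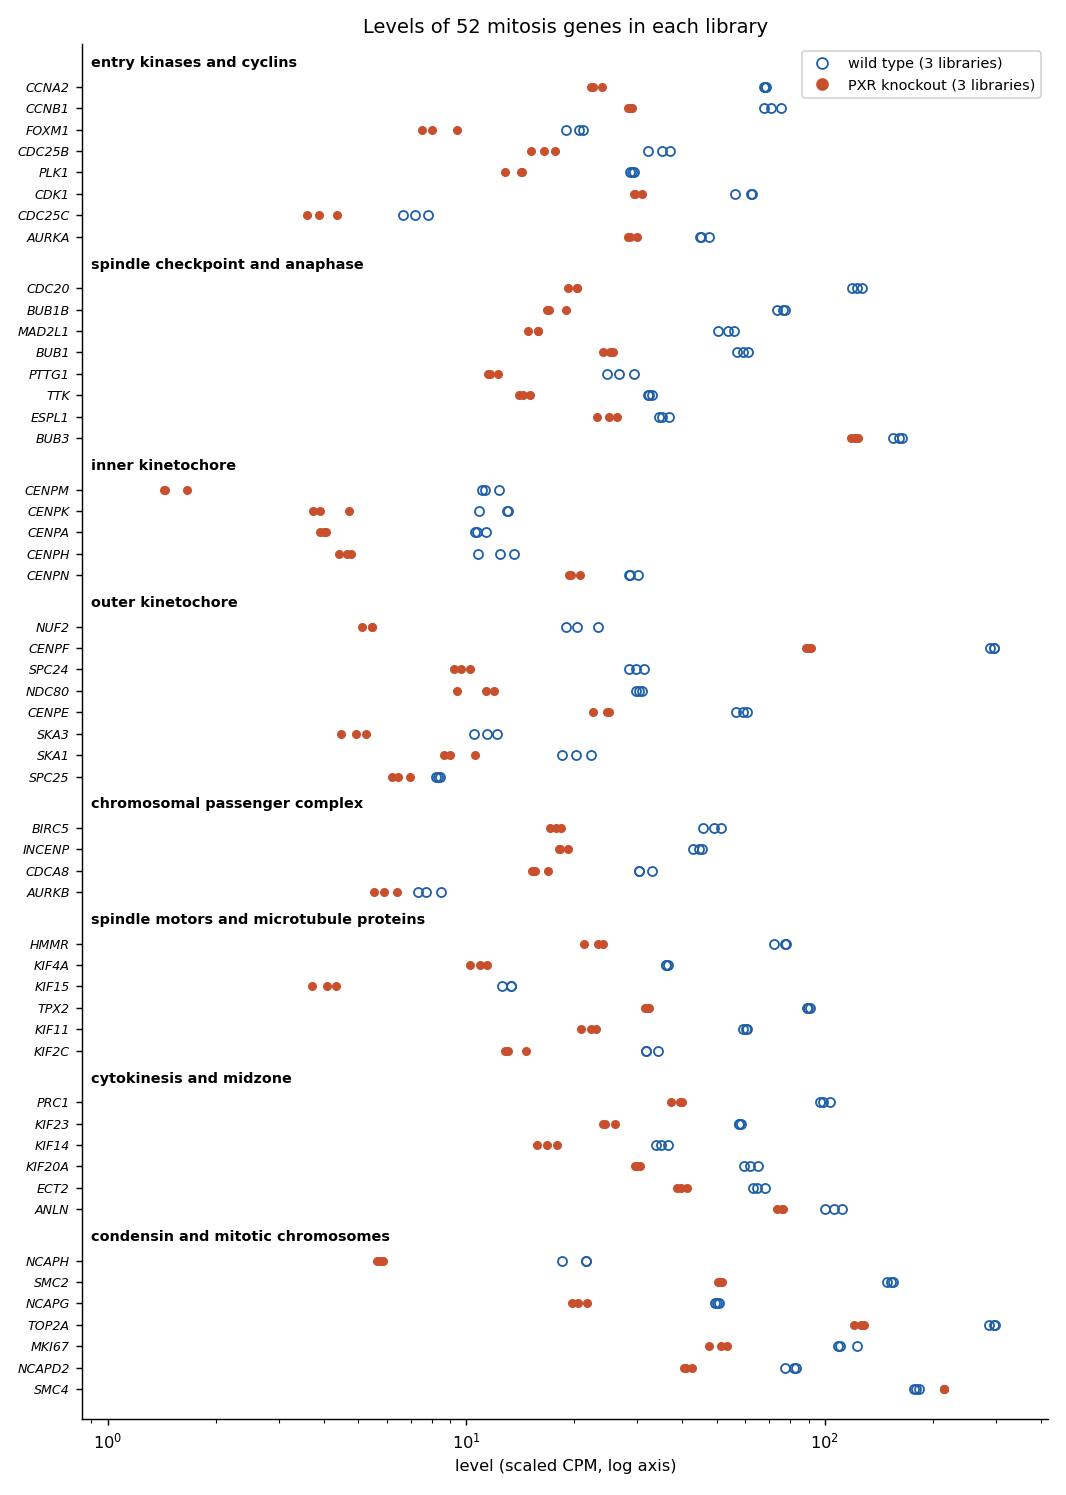
Level in scaled CPM (log axis) of each of the 52 mitosis genes, grouped by role, in the 3 wild-type libraries (open) and 3 knockout libraries (filled). The filled points lie to the left of the open ones in 51 genes and to the right in SMC4.

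The kinases, cyclins and phosphatases that start mitosis all fell, 8 of 8, by 0.65 to 1.55 on the log2 scale (median -1.05). Counts by role, here and below, stand against 39.6% lower and 40.3% higher among all tested genes. Groups did not overlap for 40.0% (lower) and 40.8% (higher) of all tested genes. CCNA2 (chromosome 4, 121816444 to 121823933 in GRCh38), the cyclin of S and G2 phase, had levels of 68.3, 67.5 and 68.4 CPM in the wild-type libraries against 23.8, 22.3 and 22.5 CPM in those of the knockout. The groups were far apart, and its log2 change was -1.55 ± 0.042 (limma adjusted p = 2.2e-13). CCNB1, the cyclin that activates CDK1, had 67.5, 75.5 and 70.5 CPM in wild type and 28.9, 28.2 and 28.8 CPM in the knockout. Its log2 change was -1.30 ± 0.045 (limma adjusted p = 3.2e-12), with no overlap. FOXM1, the transcription factor of G2 genes, had 20.6, 18.9 and 21.1 CPM in wild type and 9.40, 7.53 and 8.03 CPM in the knockout, again with every knockout library lower (log2 -1.24 ± 0.087, limma adjusted p = 7.5e-09). CDK1, the kinase itself, went from 60.4 ± 3.6 to 29.9 ± 0.76 CPM, and PLK1, a kinase of many mitotic steps, from 29.02 ± 0.35 to 13.8 ± 0.85 CPM. Of the CDC25 phosphatases that remove the inhibitory phosphates of CDK1, CDC25B changed by -1.06 and CDC25C by -0.80. AURKA, the kinase of the spindle poles, had the smallest fall here (-0.65).

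Among 8 genes of the spindle checkpoint and of anaphase, all fell, over the widest range of any role, from -0.40 to -2.59. CDC20 (chromosome 1, 43358955 to 43363203), which both obeys the checkpoint and activates the anaphase-promoting complex, had levels of 127, 119 and 123 CPM in the wild-type libraries against 19.2, 20.4 and 20.4 CPM in those of the knockout. The knockout level was 16.3% of wild type, the largest fall of all members by the fitted log2 change (-2.59 ± 0.042, limma adjusted p = 9.3e-16). BUB1B (chromosome 15, 40161023 to 40221136), the checkpoint protein BubR1, had 76.3, 73.3 and 77.3 CPM in wild type and 18.9, 17.0 and 16.8 CPM in the knockout. MAD2L1, the checkpoint protein that holds CDC20, had 53.6, 55.8 and 50.5 CPM in wild type and 15.8, 15.8 and 14.9 CPM in the knockout. In both genes the groups were well separated, with log2 changes of -2.08 ± 0.051 and -1.75 ± 0.052 (limma adjusted p = 8.2e-14 and 6.6e-13). The checkpoint kinases BUB1 and TTK changed by -1.22 and -1.14, and securin (PTTG1), which guards separase, by -1.15. Separase itself, ESPL1, changed by -0.51, and BUB3, a checkpoint scaffold, fell least (-0.40), from 159.8 ± 4.5 to 121 ± 2.4 CPM.

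The inner kinetochore, built on centromeric chromatin, fell at all 5 genes (median -1.34), and the outer kinetochore, which binds microtubules, at all 8 (median -1.36). CENPM (chromosome 22, 41938721 to 41947164), a subunit of the inner kinetochore, had levels of 11.3, 11.1 and 12.4 CPM in the wild-type libraries against 1.66, 1.44 and 1.43 CPM in those of the knockout. Those knockout levels rest on 139 estimated reads over 3 libraries, and the log2 change of -2.58 ± 0.11 (limma adjusted p = 2.4e-11) is understated at such low levels: by the means the knockout was at 13.1% of wild type. CENPK had 10.8, 13.0 and 13.0 CPM in wild type and 3.91, 3.74 and 4.70 CPM in the knockout. CENPA, the histone H3 variant that marks centromeres, had 10.6, 11.3 and 10.7 CPM in wild type and 4.005, 4.07 and 3.92 CPM in the knockout. Both fell by more than 2-fold without overlap (log2 -1.47 ± 0.11 and -1.34 ± 0.090; limma adjusted p = 1.5e-08 and 4.9e-09). CENPH changed by -1.31 and CENPN, which recognises CENPA nucleosomes, by -0.54.

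In the outer kinetochore, NUF2 (chromosome 1, 163266576 to 163355764), a microtubule-binding subunit of the NDC80 complex, had levels of 23.2, 19.0 and 20.4 CPM in the wild-type libraries against 5.45, 5.11 and 5.45 CPM in those of the knockout. The highest knockout library was at 5.45 CPM and the lowest wild-type library at 19.0 (log2 -1.87 ± 0.087, limma adjusted p = 8.1e-11). CENPF (chromosome 1, 214603195 to 214664588), a large protein of the kinetochore and nuclear envelope, had 289, 296 and 296 CPM in wild type and 91.5, 88.5 and 90.5 CPM in the knockout. Its log2 change was -1.70 ± 0.027 (limma adjusted p = 9.3e-16). SPC24, an NDC80 complex subunit that faces the chromosome, had 31.2, 29.7 and 28.5 CPM in wild type and 9.67, 9.21 and 10.2 CPM in the knockout (log2 -1.57 ± 0.066, limma adjusted p = 2.4e-11). NDC80 itself changed by -1.44, the motor gene CENPE by -1.27, and SKA1 and SKA3, which help hold microtubule ends, by -1.07 and -1.14. SPC25, the partner of SPC24, had the smallest fall of all members, from 8.35 ± 0.10 to 6.56 ± 0.39 CPM (log2 -0.33 ± 0.088, limma adjusted p = 0.00365). With the median change of its 10 Mb surroundings (-0.16) taken out, its log2 change of -0.16 no longer passed (limma adjusted p = 0.0965).

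The chromosomal passenger complex, which corrects wrong attachments and then moves to the midzone, fell at all 4 genes. BIRC5, the subunit survivin, had 45.7, 51.3 and 49.0 CPM in wild type and 17.8, 18.4 and 17.1 CPM in the knockout. INCENP (chromosome 11, 62123973 to 62153163), the scaffold, had 44.5, 42.7 and 45.4 CPM in wild type and 18.3, 19.2 and 18.1 CPM in the knockout. CDCA8, the subunit borealin, had 30.3, 30.3 and 32.9 CPM in wild type and 15.6, 15.3 and 16.9 CPM in the knockout. No library of one group reached the other in these genes, and their log2 changes were -1.43 ± 0.054, -1.23 ± 0.049 and -0.95 ± 0.060 (limma adjusted p = 7.9e-12, 1.3e-11 and 2.6e-09). AURKB, the kinase of the complex, was low in both groups, at 8.49, 7.32 and 7.74 CPM in wild type and 5.91, 6.41 and 5.52 CPM in the knockout. Its lowest wild-type library was 7.32 CPM and its highest knockout library 6.41 (log2 -0.37 ± 0.098, limma adjusted p = 0.00308). With the median change of its 10 Mb surroundings (0.52) taken out, its log2 change was -0.89, beside -0.86 for CDCA8.

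Spindle motors and microtubule proteins had the most even falls, with all 6 between -1.24 and -1.71 (median -1.53, the lowest of the roles). HMMR, a spindle assembly protein, had 72.1, 77.6 and 77.8 CPM in wild type and 24.1, 23.3 and 21.3 CPM in the knockout. KIF4A, a motor on chromosome arms and the midzone, had 35.9, 36.5 and 36.0 CPM in wild type and 11.4, 10.3 and 11.0 CPM in the knockout. KIF15, a motor that backs up KIF11, had 13.4, 13.4 and 12.5 CPM in wild type and 4.10, 3.70 and 4.33 CPM in the knockout. The knockout means were at 30.2%, 30.1% and 30.9% of wild type, with no overlap; log2 changes were -1.71 ± 0.051, -1.69 ± 0.059 and -1.58 ± 0.092 (limma adjusted p = 6.0e-13, 3.2e-12 and 9.5e-10). TPX2, which activates AURKA on the spindle, changed by -1.48, KIF11, the motor that pushes the poles apart, by -1.42, and the microtubule depolymerase gene KIF2C by -1.24.

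The genes of the midzone and of cytokinesis, the final splitting of the cell, also fell at all 6 (median -1.04). PRC1, which bundles midzone microtubules, had 98.6, 96.6 and 103 CPM in wild type and 37.1, 40.0 and 39.4 CPM in the knockout. KIF23, a motor of the centralspindlin complex, had 57.6, 58.2 and 57.6 CPM in wild type and 24.3, 24.1 and 25.9 CPM in the knockout. KIF14, a motor at the midbody, had 36.5, 33.9 and 34.9 CPM in wild type and 17.9, 15.7 and 16.8 CPM in the knockout. All of these log2 changes lay near the median member (-1.35 ± 0.040, -1.21 ± 0.043 and -1.04 ± 0.059; limma adjusted p = 5.9e-13, 4.5e-12 and 7.2e-10). KIF20A changed by -1.03, ECT2, which activates RhoA at the cleavage furrow, by -0.70, and ANLN, an actin-binding scaffold of the contractile ring, by -0.49.

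Condensin, the ring that compacts mitotic chromosomes, was split. Of 7 genes for condensin and mitotic chromosomes, 6 fell and 1 rose. NCAPH, the subunit that closes the ring, had 21.6, 18.4 and 21.6 CPM in wild type and 5.76, 5.63 and 5.85 CPM in the knockout. SMC2, one of its ATPase arms, had 153, 149 and 155 CPM in wild type and 51.1, 51.6 and 50.3 CPM in the knockout. NCAPG, a regulatory subunit, had 50.7, 49.98 and 49.5 CPM in wild type and 21.7, 20.4 and 19.7 CPM in the knockout. Every knockout library was lower than every wild-type library in these genes, with log2 changes of -1.75 ± 0.083, -1.57 ± 0.031 and -1.26 ± 0.048 (limma adjusted p = 9.8e-11, 1.0e-14 and 9.2e-12). NCAPD2 changed by -0.96, TOP2A, which untangles sister DNA, by -1.23, and MKI67, the gene of the proliferation marker Ki-67, by -1.16, from 114 ± 7.9 to 50.7 ± 3.0 CPM. SMC4 (chromosome 3, 160399274 to 160434962), the other ATPase arm of the same ring, had levels of 177, 183 and 179 CPM in the wild-type libraries against 215, 214 and 215 CPM in those of the knockout. All 3 knockout libraries were higher, by a log2 change of 0.26 ± 0.026 (limma adjusted p = 4.3e-07). The rise was smaller with equal sums (0.12, adjusted p = 7.3e-04) and with quantile normalization (0.13, adjusted p = 2.6e-04), and kept its direction and call in limma under every alternative run. SMC4 overlaps IFT80, a cilium transport gene on the opposite strand that went from 83.0 ± 2.2 to 153 ± 4.2 CPM, and TRIM59, also on the opposite strand, which went from 8.69 ± 0.54 to 4.45 ± 0.22 CPM (log2 0.88 and -0.89). The kit is stranded, but whether the counting used strand is not given in the sources used here, so reads of these genes may not be fully told apart.

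Subunits of one complex differed in their change, as ratios within each library show without any scaling between libraries. The 5 pairs were chosen after the values were seen, each with the member that fell less, or rose, as the numerator. Their direction was therefore set by that choice, and their lack of overlap is no separate result. The ratio of SMC4 to SMC2, equal partners in condensin, was 1.16, 1.23 and 1.16 in wild type and 4.21, 4.16 and 4.29 in the knockout, a shift of 1.83 in log2 ratio. BUB3 to BUB1B was 2.03, 2.23 and 2.08 in wild type and 6.52, 6.96 and 7.25 in the knockout (shift 1.71). SPC25 to SPC24 was 0.271, 0.281 and 0.290 in wild type and 0.723, 0.702 and 0.608 in the knockout (shift 1.27). All 3 knockout values lay above all 3 wild-type values in each of these pairs. AURKB to INCENP shifted by 0.86 and CENPN to CENPM by 2.39, also without overlap. With the median change of each gene's 10 Mb surroundings taken out, an alternative added after seeing the data, these 2 shifts were 0.31 and 1.63, and that of SMC4 to SMC2, at 1.98, was the largest of the 5. A two-sided exact permutation test gave p = 0.1 for each of the 5 ratios (adjusted p = 0.1), the smallest value 3 libraries against 3 allow, so the test cannot pass 0.05. Genes of different length enter each ratio, so its change between groups, not its level, is what compares.

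**Figure D3:**
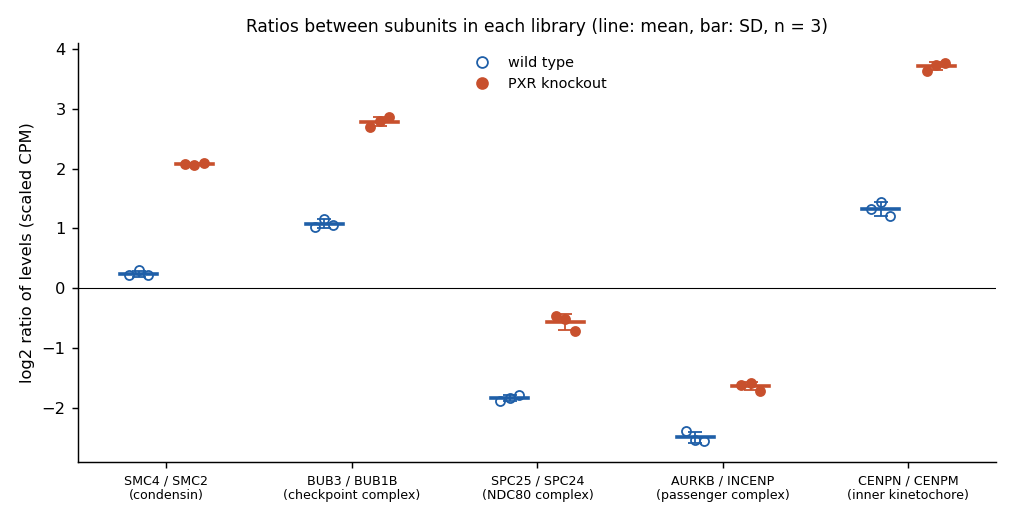
Log2 ratio of the levels of 2 subunits in each library, wild type (open) and knockout (filled), with the mean and SD of 3 libraries. The numerator of each pair is the member that fell less, or rose, so the direction was set by the choice of pairs. All 5 ratios are higher in every knockout library, by 0.86 (AURKB to INCENP) to 2.39 (CENPN to CENPM). Both of these end values are smaller, 0.31 and 1.63, with the median change within 10 Mb taken out.

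The chromosomal surroundings of a few members also differed between the groups. For 48 of the 52 genes the median log2 change of other tested genes within 10 Mb lay between -0.28 and 0.18. For CENPM that median was -0.79, close to the median of -0.77 over all 377 tested genes of its chromosome, 22. ANLN on chromosome 7, AURKB on chromosome 17 and ESPL1 on chromosome 12 lie where the 10 Mb median was 0.44, 0.52 and 0.57. Medians over all tested genes of chromosomes 7, 17 and 12 were 0.43, 0.064 and 0.33. ANLN, AURKB and ESPL1 are among the members that fell least. With the surrounding median taken out, an alternative added after seeing the data, the log2 changes became -1.79 for CENPM, -0.93 for ANLN, -0.89 for AURKB and -1.08 for ESPL1. SMC4 was at 0.26 and BUB3 at -0.39 in that fit. Over all members, 50 fell and 1 rose in that fit, the exception being SPC25.

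**Figure D4:**
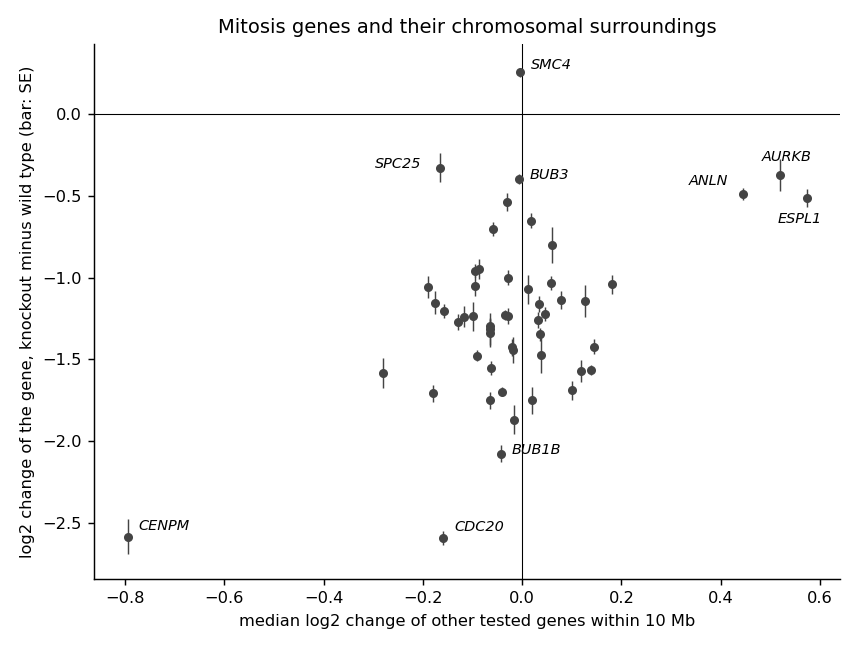
Log2 change of each of the 52 mitosis genes (points, with SE) against the median log2 change of other tested genes within 10 Mb. CENPM stands at the left with a surrounding median of -0.79, and ANLN, AURKB and ESPL1 at the right with 0.44 to 0.57.

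Other genes of mitosis, from 7 lists that hold none of the members, fell for the most part. Of 130 tested, 102 fell (78.5%), 11 rose (8.46%) and 17 did not pass, with a median of -0.60; the counts of these lists stand against 39.6% lower and 40.3% higher among all tested genes. Further spindle and cytokinesis genes fell at all 24 (median -1.04), led by the motor gene KIFC1 (36.4, 36.1 and 35.3 CPM in wild type and 10.9, 13.1 and 13.4 CPM in the knockout; log2 -1.50 ± 0.072) and by CEP55, for a midbody protein (36.3, 37.5 and 40.3 CPM in wild type and 13.0, 12.7 and 13.8 CPM in the knockout; log2 -1.50 ± 0.060). Further kinetochore genes fell at 22 of 29 and rose at 4 (median -0.78). ZWILCH, of the complex that brings dynein to kinetochores, changed by -1.82 ± 0.047 and OIP5, which helps load CENPA, by -1.66 ± 0.10, whereas MIS12, for a subunit that anchors the outer kinetochore, changed by 0.75 ± 0.070; MIS12 no longer passed with its surrounding median taken out (0.10, limma adjusted p = 0.209). Among 18 further kinases and regulators, 15 fell and 1 rose. CDC25A, the third CDC25 phosphatase, had 17.8, 16.8 and 15.7 CPM in wild type and 2.74, 2.22 and 2.12 CPM in the knockout (log2 -2.60 ± 0.11), and GTSE1, a G2 and S phase protein, changed by -1.75 ± 0.096, or by -0.94 with its surrounding median taken out. ENSA, which inhibits the phosphatase opposing CDK1, rose (0.40 ± 0.037, or 0.26 with equal sums).

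CDC20 activates the anaphase-promoting complex. Of 17 genes of the complex and its close partners, 8 fell (47.1%), 3 rose (17.6%) and 6 did not pass (median -0.07); the share that fell was near the 39.6% of all tested genes. The largest falls there were those of FBXO5, an inhibitor of the complex (-1.08 ± 0.071), and UBE2S, a ubiquitin-conjugating enzyme (-1.03 ± 0.055), and the largest rise that of the core subunit gene ANAPC5 (0.44 ± 0.028), which turned to -0.033 (limma adjusted p = 0.296) with its surrounding median taken out. Cohesin, which holds sister chromatids together, and its regulators fell at 15 of 18 and rose at 1 (median -0.41; that list also holds subunits of the second condensin). CDCA5, for sororin, changed by -1.63 ± 0.061 and SGO2, a protector of centromeric cohesin, by -1.58 ± 0.062, against 0.24 ± 0.039 for the cohesin subunit gene STAG1, or 0.11 with equal sums. Of 13 factors of MuvB and DREAM, 10 fell and 1 rose (median -0.50). MYBL2, which encodes B-MYB, had 18.7, 18.7 and 21.0 CPM in wild type and 3.20, 3.56 and 3.36 CPM in the knockout. The groups did not overlap, with a log2 change of -2.36 ± 0.089 (limma adjusted p = 7.3e-12), while RBL1, for the pocket protein p107, changed by -1.31 ± 0.055 and DYRK1A, the kinase that promotes DREAM assembly, by 0.28 ± 0.032, or by 0.14 with equal sums. Tubulins and the gamma-tubulin ring fell at 8 of 11 and none by 2-fold: TUBGCP6 changed by -0.91 ± 0.042 and lost its call with its surrounding median taken out (-0.072, limma adjusted p = 0.112), TUBB4B by -0.82 ± 0.030, and TUBA1A rose by 0.92 ± 0.10, or by 0.40 with its surrounding median taken out.

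**Figure D5:**
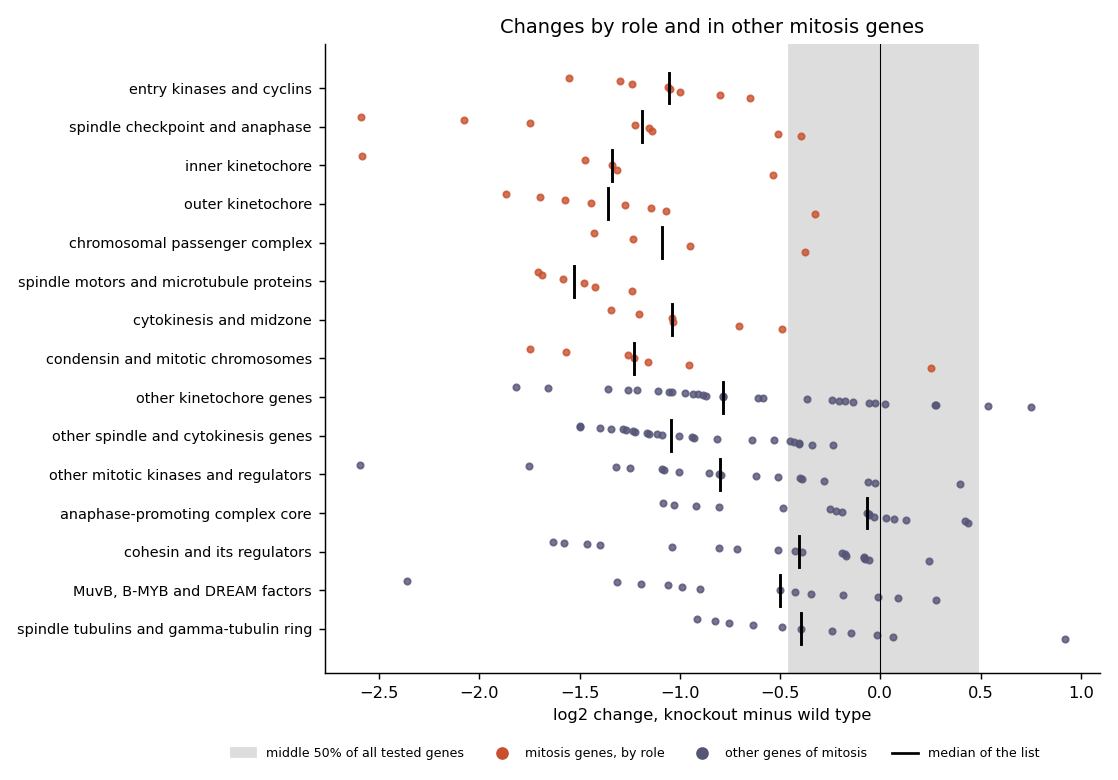
Log2 change of each gene by role (upper 8 rows, the 52 mitosis genes) and in 7 lists of other mitosis genes (lower rows), with each list's median as a line and the middle 50% of all tested genes in grey. Medians lie between -1.53 and -1.04 for the roles and reach -0.07 for the anaphase-promoting complex.

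The library values of the named genes of these lists follow. Each gene was picked as the largest rise or among the 2 largest falls of its list, so its separation is no separate result. Among all tested genes, 40.0% were lower and 40.8% higher in the knockout without overlap. ZWILCH stood at 55.6, 58.3 and 54.3 CPM in wild type and 15.8, 15.4 and 15.5 CPM in the knockout. OIP5 stood at 8.08, 8.90 and 8.86 CPM in wild type and 2.40, 2.33 and 2.43 CPM in the knockout. MIS12 stood at 20.3, 23.0 and 18.2 CPM in wild type and 35.0, 35.2 and 34.0 CPM in the knockout. Knockout libraries were all lower for ZWILCH and OIP5 and higher for MIS12. GTSE1 stood at 14.3, 14.1 and 14.2 CPM in wild type and 4.39, 3.56 and 3.67 CPM in the knockout. ENSA stood at 91.3, 83.0 and 88.6 CPM in wild type and 116, 117 and 113 CPM in the knockout. All 3 knockout libraries were lower for GTSE1 and higher for ENSA. FBXO5 stood at 19.4, 18.7 and 17.7 CPM in wild type and 8.32, 8.44 and 8.70 CPM in the knockout. UBE2S stood at 51.9, 47.6 and 53.4 CPM in wild type and 23.3, 24.7 and 26.0 CPM in the knockout. ANAPC5 stood at 134, 132 and 128 CPM in wild type and 179, 176 and 179 CPM in the knockout. Knockout libraries were all lower for FBXO5 and UBE2S and higher for ANAPC5. CDCA5 stood at 27.5, 28.3 and 28.8 CPM in wild type and 8.69, 8.89 and 8.71 CPM in the knockout. SGO2 stood at 42.0, 45.3 and 44.2 CPM in wild type and 13.7, 15.7 and 13.7 CPM in the knockout. STAG1 stood at 60.5, 65.1 and 60.5 CPM in wild type and 75.3, 71.0 and 74.3 CPM in the knockout. All 3 knockout libraries were lower for CDCA5 and SGO2 and higher for STAG1. RBL1 stood at 33.3, 33.9 and 36.1 CPM in wild type and 13.8, 13.3 and 13.6 CPM in the knockout. DYRK1A stood at 102, 109 and 102 CPM in wild type and 128, 128 and 125 CPM in the knockout. Knockout libraries were all lower for RBL1 and higher for DYRK1A. TUBGCP6 stood at 83.2, 88.2 and 86.0 CPM in wild type and 43.1, 47.7 and 45.3 CPM in the knockout. TUBB4B stood at 379, 367 and 366 CPM in wild type and 202, 209.8 and 216 CPM in the knockout. TUBA1A stood at 6.29, 5.85 and 4.89 CPM in wild type and 10.7, 10.9 and 11.8 CPM in the knockout. All 3 knockout libraries were lower for TUBGCP6 and TUBB4B and higher for TUBA1A.

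For context, the cell cycle inhibitor gene CDKN1A (p21) had 36.4, 36.0 and 32.8 CPM in wild type and 659.6, 649 and 683 CPM in the knockout (log2 4.22 ± 0.038). E2F1, a factor of S phase genes, had 23.7, 20.5 and 23.1 CPM in wild type and 6.90, 7.82 and 7.28 CPM in the knockout (log2 -1.55 ± 0.080). CDKN1A was higher and E2F1 lower in every knockout library, and the part of these genes in the other results was not tested.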

How the data were processed

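RNA of 6 HepaRG libraries, 3 per group by their titles, was made with a stranded mRNA kit, per the labels' protocols; tools listed in the submitters' processing notes are limma, edgeR, Bowtie2, Trim Galore and FastQC, with build hg38 and no versions. The deposited table holds a linear signal per gene, named for log2 CPM, whose columns sum to 936409 to 1042826; the depth was estimated from the value of 1 read. The design assumed that log2 values might be given; as the deposited values are linear, log2(value + 0.5) was fitted with limma 3.58.1 in R 4.3.3 (group, mean-variance trend, two-sided, Benjamini-Hochberg over all genes), on 16219 genes above 1 CPM in at least 3 libraries. All 52 members passed that filter. 14 second rows of a gene identifier were left out of 16673, and coordinates and exon lengths came from GENCODE 29 (GRCh38) for 16608 genes. Members, lists and tests were chosen with earlier results of these data known. All members are reported; library values are given for the 3 largest changes of each role, the member that rose, and a few others chosen after their values were seen; library values are also given for the largest rise and 2 largest falls of each other list. One gene set down for context is not reported here. Replicates within a group differed on average by more than sampling noise (mean chi-square 2.25 to 9.80 per gene). The median chi-square was lower, 0.64 to 0.91, and how widely the excess was spread over genes was not tested. On simulated data (15391 genes tested), 90.9% of 1.5-fold changes were recovered, with 11 false calls of 192. The simulation changed few genes and used wild-type means and a preset spread, not one estimated from these libraries. Its rates therefore do not carry over to these data, where 79.9% of tested genes changed. Alternatives were the pseudocount, the filter, no trend, equal sums, quantile normalization, chromosome medians, a replicate block and each library left out. Other steps ran in scipy 1.17.1, numpy 2.4.6, pandas 2.3.3 and matplotlib 3.10.9 under Python 3.11.15.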

Additional observations from a re-analysis of the deposited data

How the results depend on the processing

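The count of members past the threshold was 52 in every alternative but that with the 10 Mb surrounding median taken out, where it was 51; SMC4 was the only one higher in each. The median log2 change of the members was -1.26 with a pseudocount of 0.1, -1.21 with 1, -1.37 with libraries scaled to equal sums and -1.285 with quantile normalization, and lay between -1.27 and -1.21 when each library was left out in turn. Leaving out a library left 51 members lower each time, and 97 to 102 other mitosis genes lower. With the surrounding median taken out, SPC25 (-0.16), MIS12 (0.10) and TUBGCP6 (-0.072) lost their calls and ANAPC5 turned to -0.033; the cause was not tested. No pairing of the libraries by replicate number was visible in expression: same-numbered deviations from the group means correlated at -0.020, -0.061 and 0.025. These correlations cannot show whether the libraries were prepared in pairs. A fit with the replicate number as a block called 51 members lower and 1 higher, 101 other mitosis genes lower and 12916 genes in all, and changed no call of a named gene. Depth limits mainly the low members: the falls of CENPM, CDC25C, CENPA, KIF15 and CENPK rest on 139, 363, 366, 372 and 379 estimated knockout reads.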
